A study of Solea senegalensis with 15 samples.

Results

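The testes of 5 Senegalese sole (*Solea senegalensis*) males given recombinant follicle-stimulating hormone (rFsh) were compared with those of 5 males given saline, to describe which cell functions moved after the hormone besides the genes of ribosomal proteins. The fish were 2-year-old males, the first generation bred from wild-caught parents, and received 1 intramuscular injection a week for 6 weeks. The rFsh fish received single-chain sole Fsh at 18 µg/kg and the saline fish the vehicle alone. A further 5 fish, given recombinant luteinizing hormone (rLh) at 18 µg/kg on the same schedule, entered only the estimate of the spread between fish. Each library came from the testis of a separate fish, so that the spread within a group is that between animals. The fish are called here by their group and number: rFsh 61, 62, 64, 68 and 69, and saline 63, 64, 66, 67 and 68, and values for single fish are given in that order. A gene was a member of the comparison where at least 1 of these 10 fish had 50 reads, which 21162 of the 28921 genes in the file did.

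Fsh is secreted by the pituitary and acts in the testis through its receptor on Sertoli cells, the somatic cells that nurse the germ cells, and in some fish also on the Leydig cells that make androgens. The receptor raises cyclic AMP, and Sertoli cells respond with growth factors and hormones that set how many spermatogonia renew themselves and how many divide and enter meiosis. Spermatogonia multiply by mitosis, spermatocytes pair and recombine their chromosomes in meiosis, and the haploid spermatids build the sperm tail. In sole this last step takes place largely in the lumen of the tubule, after the spermatids have left the Sertoli cells.

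Reads assigned to genes numbered 50.7 to 76.2 M in rFsh fish (median 61.2) and 67.8 to 109.8 M in saline fish (median 79.9). The first principal component of log2 CPM, reads scaled to a common library total, held 27.0% of the variance among the 10 fish, and 4 rFsh fish lay between 12.7 and 43.0 on it, against −43.5 to −22.3 for 4 saline fish. The remaining fish of each group stood apart from its group: rFsh 69 lay at −9.7 and saline 68 at 24.8. The fish rFsh 69 also had the highest value on the second component (55.0, with 16.1% of the variance). Neither fish is marked in the labels, so both were kept, and counts without each of them are given for some of the lists. Testis markers were abundant in all 10 fish: the Sertoli cell factor *gsdf* ranged from 1260 to 2710 CPM in rFsh fish and from 1520 to 2590 CPM in saline fish, and the synaptonemal complex gene *sycp1* from 372 to 504 CPM in rFsh fish and from 281 to 377 CPM in saline fish.

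**Figure D1:**
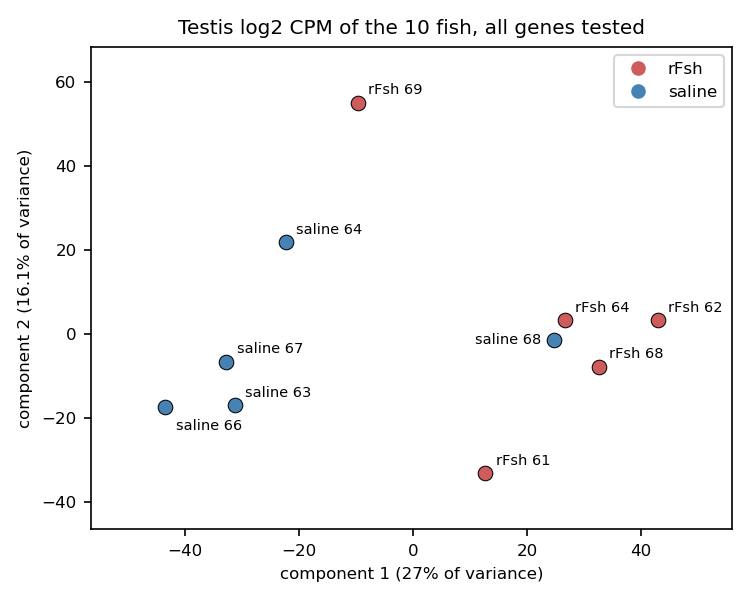
Position of each testis on the first and second principal components (no unit) of log2 CPM over all genes tested, rFsh fish in red and saline fish in blue. Saline 68 sits among the rFsh fish at 24.8 on the first component, and rFsh 69 sits alone at 55.0 on the second.

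The way reads were assigned set a limit on which genes could be seen. Of 1501 genes whose whole span lies inside that of another gene, 1495 (99.6%) had 0 reads in all 15 fish, against 44 of 18517 genes (0.238%) that share no span. Among the 1946 genes on the lists of functions and markers used here, 50 lie inside another gene, and all 50 were at 0. One of them is *fshr*, the receptor of Fsh, so that its zero is no measurement of the receptor. No level is given either for the synaptonemal complex gene *sycp3*, the Kit ligand gene *kitlga* and the transcription factor gene *sox3*, which lie inside other genes as well. A gene may also share only part of its span with another or hold another inside it. Reads of the shared part may then be lost or counted for the wrong gene, and which of these happened was not tested. Among genes named below this concerns *cenps*, *sycp1*, *cfap43*, *kif3b*, *shbg*, *ar*, *mybpc2a*, *ighd* and those marked in the text.

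The edgeR quasi-likelihood test, with Benjamini-Hochberg adjustment over all 21162 genes, called 10 genes (0.0473%) at an adjusted p of 0.05, of which 9 were higher after rFsh (0.0425%) and 1 lower (0.00473%). At an unadjusted p under 0.05 it held 3644 genes (17.2%), 2024 of them higher (9.56%) and 1620 lower (7.66%). DESeq2 called 622 genes on the same fish (2.94%), 340 higher (1.61%) and 282 lower (1.33%), among them all 10 genes of edgeR. The values of the groups did not overlap for 364 genes (1.72%), with 186 higher (0.879%) and 178 lower (0.841%). The number of calls depended on single fish. Without rFsh 69 edgeR called 1005 genes and DESeq2 2250, and without saline 68 they called 643 and 2310. All 10 genes named next stayed among the calls of both tools without either of these fish. With other fish left out edgeR kept fewer of the 10. It kept 1 without saline 66 or saline 67, 2 without rFsh 68 or saline 63, and 3 without rFsh 64. DESeq2 kept 9 without rFsh 64 and all 10 without any other fish. At an unadjusted p under 0.05, 12.1% of all genes were higher and 11.4% lower without rFsh 69, and 13.6% were higher and 11.1% lower without saline 68. List counts without these fish are to be read against these shares. These 2 fish are those whose removal raised the calls the most. Removal of saline 66 or rFsh 68 lowered the DESeq2 calls, to 161 and 175. List counts with any other single fish left out are not given. The median log2 fold change (rFsh over saline) of all genes was 0.006. Since few single genes passed edgeR, gene lists are described below by the share of members at an unadjusted p under 0.05 and by the DESeq2 calls. Counts over all fish given without a share of all genes are to be read against 9.56% higher and 7.66% lower, and several lists lie close to these. The words "rose" and "fell" are used only of genes called by a named tool. Most of these calls rest on DESeq2 alone, which made 39 false calls on simulated counts, against 10 for edgeR.

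In the sentences that follow, a fold change is given with its SE from edgeR. Of the 10 genes called by edgeR, 4 reached 50 reads in rFsh fish only, which are the gene matching HSPB1 and 3 immunoglobulin variable segments taken up below. As these entered the test through the group in which they are high, their number is no support for a direction. The call with the smallest p was the only decrease: a gene on linkage group 17 of the build IFAPA_SoseM_1 (LOC122783953, 13025122 to 13039986) whose human match is APOB, the structural protein of lipid-carrying particles in plasma, had 3.32, 2.48, 2.16, 2.27 and 4.28 CPM in rFsh fish, against 16, 20.9, 19.8, 30 and 16.7 CPM in saline fish. Every saline fish was above every rFsh fish (log2 fold change −2.81 ± 0.33, edgeR adjusted p = 0.00646). A gene matching HSPB1, a small heat shock protein (LOC122758491), had 1.21, 0.663, 0.166, 0.744 and 0.66 CPM in rFsh fish, against 0.0524, 0.087, 0.038, 0.0519 and 0.0376 CPM in saline fish. All rFsh fish were above all saline fish, from low counts (log2 fold change 3.73 ± 0.62, edgeR adjusted p = 0.0257).

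The metabotropic glutamate receptor gene *grm5a*, on linkage group 13 (3838311 to 3861142), rose with a narrow spread in both groups. Its levels were 11.2, 11.7, 12, 14.3 and 14.3 CPM in rFsh fish, against 9.14, 6.41, 7.11, 6.09 and 7.44 CPM in saline fish. The groups did not overlap, and the difference was small in size (log2 fold change 0.80 ± 0.13, edgeR adjusted p = 0.0466). A gene matching CSMD3, a large membrane protein with sushi domains (LOC122774892), had 17.2, 20.5, 16.9, 19.9 and 12.3 CPM in rFsh fish, against 4.17, 6.67, 4.94, 3.58 and 4.37 CPM in saline fish (log2 fold change 1.87 ± 0.32, edgeR adjusted p = 0.0493). Here rFsh 69 was the lowest of the rFsh fish and still above every saline fish.

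The other 2 calls have no human match in the sources used. The protein-coding gene LOC122779484 had 11.6, 12.7, 12.4, 11.1 and 9.3 CPM in rFsh fish, against 5.29, 6.91, 5.61, 6.39 and 6.61 CPM in saline fish (log2 fold change 0.90 ± 0.13, edgeR adjusted p = 0.0257). The long non-coding RNA LOC122770327 had 6.14, 11.1, 7.5, 5.12 and 6.36 CPM in rFsh fish, against 1.83, 4.26, 1.74, 2.53 and 2.62 CPM in saline fish (log2 fold change 1.51 ± 0.24, edgeR adjusted p = 0.0466). Both were higher in every rFsh fish than in any saline fish. Both share part of their span with another gene, so that their levels may lack reads or hold reads of that gene.

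**Figure D2:**
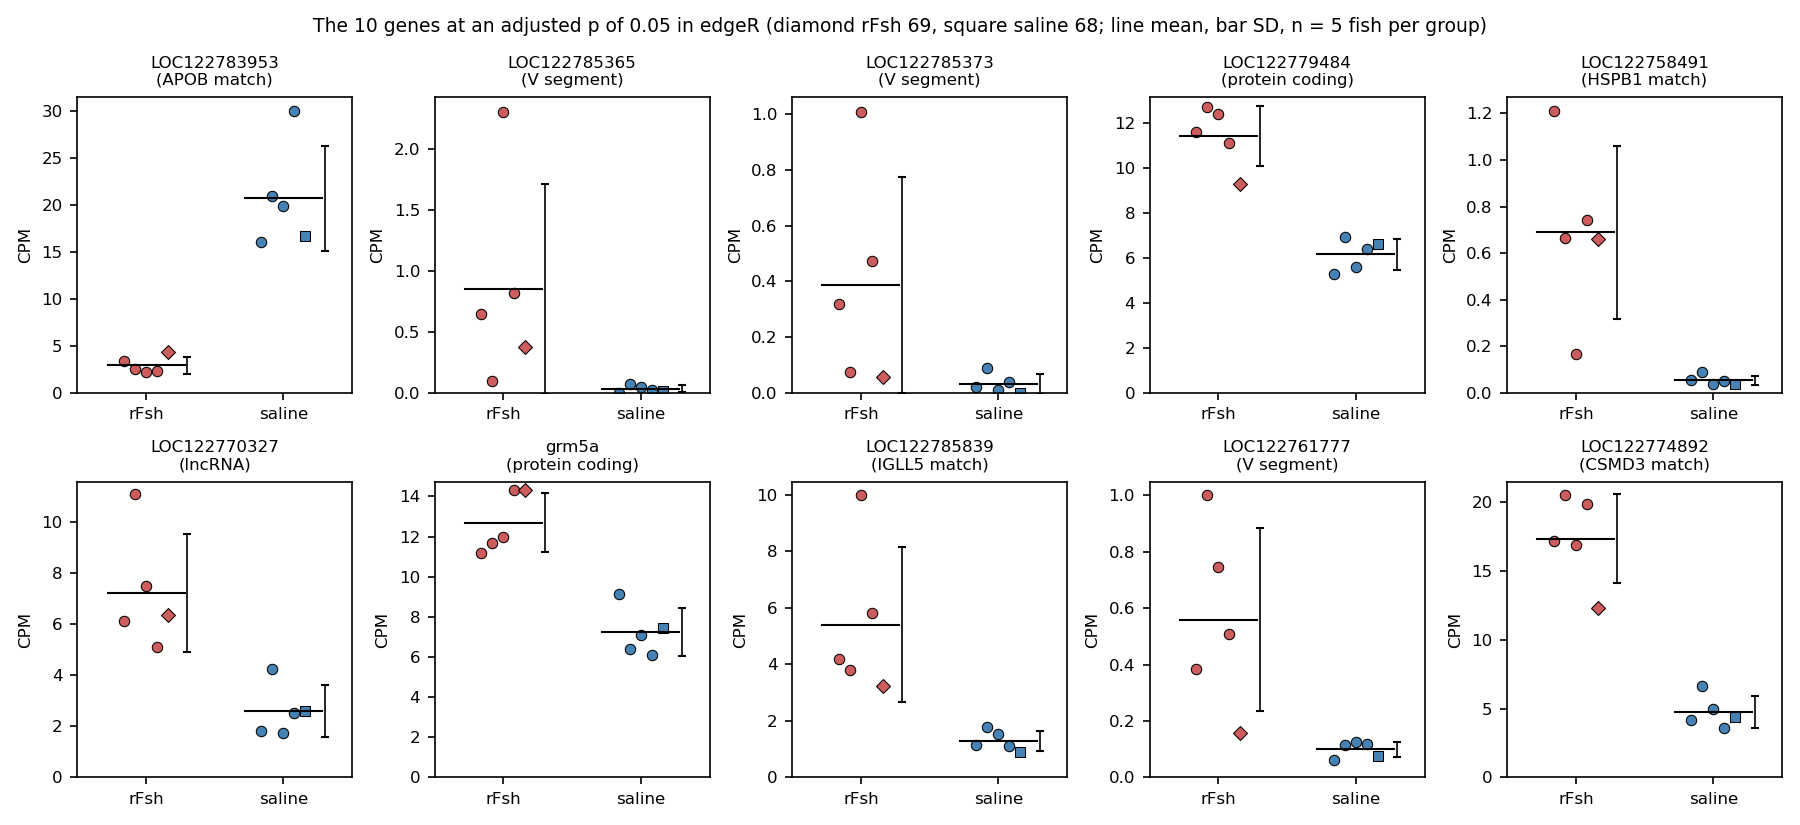
CPM per fish of the 10 genes called by edgeR, rFsh fish in red and saline fish in blue, with the mean (line) and SD (bar, ended at 0 where it would pass below, n = 5 fish per group). The APOB match is the only one lower after rFsh, and in 9 of the 10 panels the groups do not overlap. The exception is the V segment LOC122785373.

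Immunoglobulin genes, which B cells and plasma cells transcribe, were 4 of the 10 calls: 1 gene matching IGLL5, an immunoglobulin light chain polypeptide, and 3 variable segments that passed the minimum of reads only in rFsh fish, where their highest counts were 139 (LOC122785365), 61 (LOC122785373) and 53 (LOC122761777). The segment LOC122785365 on linkage group 19 (14420398 to 14420911) had 0.65, 0.0947, 2.31, 0.817 and 0.373 CPM in rFsh fish, against 0.0, 0.0725, 0.0475, 0.026 and 0.0125 CPM in saline fish, with log2 fold change 4.71 ± 0.74 and an edgeR adjusted p of 0.00814. It was close to 0 in all saline fish, while rFsh 64 was the highest and rFsh 62 the lowest of the rFsh fish. The IGLL5 match (LOC122785839) had 4.19, 3.79, 9.99, 5.81 and 3.24 CPM in rFsh fish, against 1.13, 1.77, 1.54, 1.12 and 0.914 CPM in saline fish (log2 fold change 2.05 ± 0.35, edgeR adjusted p = 0.0493). Again the groups did not overlap and rFsh 64 was the highest.

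The segment LOC122761777 had 0.385, 1.0, 0.747, 0.508 and 0.158 CPM in rFsh fish, against 0.0628, 0.116, 0.124, 0.117 and 0.0751 CPM in saline fish (log2 fold change 2.42 ± 0.42, edgeR adjusted p = 0.0493), without overlap. The segment LOC122785373 had 0.318, 0.0757, 1.01, 0.472 and 0.0574 CPM in rFsh fish, against 0.0209, 0.087, 0.00951, 0.0389 and 0.0 CPM in saline fish (log2 fold change 3.67 ± 0.66, edgeR adjusted p = 0.0257), and here rFsh 62 and rFsh 69 lay below saline 64. These segments are short and alike in sequence, so that reads may be shared between copies. The immunoglobulin delta heavy chain gene *ighd*, whose span covers segments that themselves read 0, had 197, 170, 655, 268 and 150 CPM in rFsh fish, against 32.9, 65.6, 75.1, 96.2 and 63.6 CPM in saline fish. All rFsh fish exceeded all saline fish, and the gene rose by DESeq2 and missed the threshold of edgeR (log2 fold change 2.11 ± 0.39, DESeq2 adjusted p = 0.00205, edgeR adjusted p = 0.0728).

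The file holds 98 variable and constant segments, 14 of them at 0 in all 15 fish. Their summed level, taken over all 98 without a minimum, was 32.1, 31.6, 119.0, 47.5 and 28.8 CPM in rFsh fish, against 6.48, 13, 14, 17.3 and 12.4 CPM in saline fish. The lowest rFsh fish was above the highest saline fish, and this sum is a description chosen after the values were seen, with no test. Only 31 segments reached 50 reads in any of the 10 fish. Together with *ighd*, 21 of these 32 genes reached it in rFsh fish alone and 0 in saline fish alone, so no count of calls over them is given.

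Other B cell genes were less uniform. Of the B cell receptor chains, *cd79b* had 0.517, 1.1, 2.22, 1.27 and 0.603 CPM in rFsh fish, against 0.283, 0.478, 0.342, 0.402 and 0.301 CPM in saline fish and rose by DESeq2 (log2 fold change 1.64 ± 0.42, adjusted p = 0.0131, edgeR adjusted p = 0.119). Its partner *cd79a* had 1.11, 1.61, 2.22, 1.47 and 1.09 CPM in rFsh fish, against 0.848, 0.957, 0.951, 0.973 and 1.01 CPM in saline fish, also without overlap (log2 fold change 0.64 ± 0.23, DESeq2 adjusted p = 0.115). Over the 11 B cell markers measured, *ighd* among them, the median log2 fold change was 0.01. At an unadjusted p under 0.05, 3 members were higher (27.3%, against 9.56% of all genes) and 2 lower (18.2%, against 7.66%). The 3 higher ones were *ighd*, *cd79b* and *cd79a*, already given above. Of these, *cd79b* passed the minimum of reads in rFsh fish only, so it entered the test through the group in which it is high. Its call is thus no support for a direction. The 2 lower ones were *xbp1*, a transcription factor of secretory cells, and *swap70b*, a signalling adaptor of B cells. Of 11 T cell markers 1 was higher and 0 lower, and of 18 markers of macrophages and granulocytes 1 was higher and 0 lower. In whole testis RNA, fewer cells of a type cannot be told apart from less RNA of that gene per cell, and this holds for every result here.

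**Figure D3:**
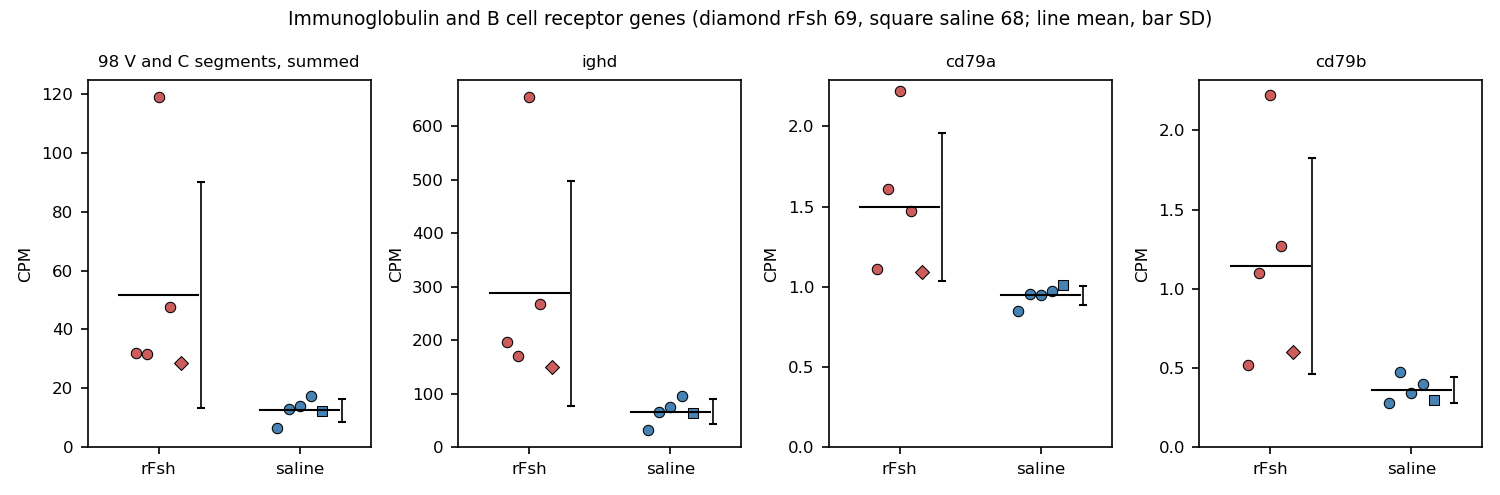
CPM per fish of the summed immunoglobulin segments, of the heavy chain gene ighd and of the B cell receptor chains cd79a and cd79b, rFsh fish in red and saline fish in blue, with mean (line) and SD (bar). In each panel the 5 rFsh fish lie above the 5 saline fish, and rFsh 64 is the highest.

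Of the 32 lists of cell functions, that of mitosis and the spindle checkpoint had the largest share of members on the higher side over all fish, while over the 12 fish described below the meiotic list had a larger one (50% against 40.2%). Of 82 members measured, 43 (52.4%) were higher and 0 lower at an unadjusted p under 0.05, against 9.56% and 7.66% of all genes. The median log2 fold change was 0.29, and 77 members were above 0. DESeq2 called 12 of the 82 as higher and 0 as lower, against 1.61% and 1.33% of all genes, while edgeR called 0 in either direction. The 12 were *mad2l1*, *kntc1*, *lin9*, *knl1*, *ccne2*, *aspm*, *mybl2a*, *birc5a*, *cdk2*, *ncapd3*, *bub1bb* and *cenps*. Without rFsh 69, 59 members were higher at an unadjusted p under 0.05 (12.1% of all genes) and DESeq2 called 44 (5.95% of all genes). Without saline 68 these counts were 50 (13.6% of all genes) and 23 (5.83% of all genes). Over the 12 fish of the study's own analysis (without rFsh 62, saline 68 and 1 rLh fish) they were 33 (11.2% of all genes) and 14 (2.98% of all genes).

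The checkpoint gene *mad2l1*, which holds back anaphase until all chromosomes are attached, had 81.7, 77.1, 70, 73.9 and 50.1 CPM in rFsh fish, against 49.4, 39.5, 44.8, 48 and 48.3 CPM in saline fish. Every rFsh fish was above every saline fish, rFsh 69 by a narrow margin (log2 fold change 0.62 ± 0.12, DESeq2 adjusted p = 0.000845, edgeR adjusted p = 0.076). Its partner at the kinetochore, *kntc1*, part of the complex that recruits checkpoint proteins, had 67.9, 67.5, 54.9, 58.8 and 46.2 CPM in rFsh fish, against 45.2, 47.5, 37.1, 33.8 and 43.7 CPM in saline fish, and rFsh 69 lay within the saline range (log2 fold change 0.51 ± 0.11, DESeq2 adjusted p = 0.00782). The gene *lin9*, a subunit of the complex that switches on mitotic genes, had 68.7, 64.1, 71.4, 70.8 and 49.9 CPM in rFsh fish, against 51, 50.7, 47.7, 50.9 and 45.2 CPM in saline fish, and rFsh 69 again lay within the saline range (log2 fold change 0.40 ± 0.09, DESeq2 adjusted p = 0.00843).

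A few more were named after their values were seen. The kinetochore scaffold *knl1* had 76.1, 83.3, 78.7, 73 and 58.6 CPM in rFsh fish, against 55.7, 53.9, 56.5, 48.6 and 58.3 CPM in saline fish, without overlap (log2 fold change 0.44 ± 0.10, DESeq2 adjusted p = 0.0131). The spindle pole gene *aspm* had 153, 219, 159, 180 and 172 CPM in rFsh fish, against 112, 126, 117, 111 and 158 CPM in saline fish, where saline 68 reached the rFsh range (log2 fold change 0.50 ± 0.12, DESeq2 adjusted p = 0.0126). Cyclin E2 (*ccne2*), which drives entry into S phase, had 16.3, 13.9, 15.2, 16.3 and 12.8 CPM in rFsh fish, against 11.4, 10.5, 10.4, 9.85 and 13.1 CPM in saline fish (log2 fold change 0.43 ± 0.10, DESeq2 adjusted p = 0.00855). The level of rFsh 69 lay just below that of saline 68 for this gene. The checkpoint kinase gene *bub1bb* had 116, 119, 126, 126 and 70.5 CPM in rFsh fish, against 71.2, 63.7, 83.3, 76.5 and 97.4 CPM in saline fish, and rFsh 69 lay at the lower end of the saline range (log2 fold change 0.51 ± 0.15, DESeq2 adjusted p = 0.0491).

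The list level of a fish, the mean over members of log2 CPM after subtracting the mean of each gene over the 10 fish, was 0.321, 0.299, 0.096, 0.175 and −0.191 for mitosis in rFsh fish, against −0.186, −0.206, −0.121, −0.200 and 0.012 in saline fish. The group means were 0.140 ± 0.207 in rFsh fish and −0.140 ± 0.092 in saline fish (SD, n = 5 each). Of the rFsh fish, 4 were above all saline fish, and rFsh 69 lay among the lowest saline fish. Whether these transcripts came from dividing spermatogonia or from germ cells in meiosis was not tested.

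Genes of meiotic recombination and of the synaptonemal complex, which joins paired chromosomes, had a share close to that of mitosis. Of 32 members, 16 (50%) were higher and 0 lower at an unadjusted p under 0.05, the median log2 fold change was 0.25 and 27 members were above 0. DESeq2 called 6 as higher, among them *sycp2*, *sycp1*, *mnd1*, *mcm8* and *cntd1*, and 0 as lower, and edgeR called 0. Over all genes, DESeq2 called 1.61% as higher and 1.33% as lower. The count at an unadjusted p under 0.05 was 16 without rFsh 69, 16 without saline 68 and 16 over the 12 fish. The list level was 0.126, 0.321, 0.170, 0.109 and −0.016 in rFsh fish, against −0.041, −0.202, −0.193, −0.175 and −0.098 in saline fish. The groups did not overlap, and rFsh 69 was closest to the saline fish.

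The axial element gene *sycp2* had 154, 158, 130, 143 and 89.9 CPM in rFsh fish, against 92.9, 86.6, 77.7, 78.5 and 93 CPM in saline fish, and rFsh 69 lay within the saline range (log2 fold change 0.65 ± 0.13, DESeq2 adjusted p = 0.00137, edgeR adjusted p = 0.0936). The transverse filament gene *sycp1*, which shares part of its span with another gene, had 504, 409, 464, 483 and 372 CPM in rFsh fish, against 329, 281, 332, 377 and 334 CPM in saline fish (log2 fold change 0.43 ± 0.10, DESeq2 adjusted p = 0.0103). Only rFsh 69 fell within the saline range. The gene *mnd1*, which helps the recombinases find the homologous chromosome, had 46.7, 52.3, 43.1, 40.8 and 38.5 CPM in rFsh fish, against 26.5, 30.5, 25.7, 24.6 and 33 CPM in saline fish, without overlap (log2 fold change 0.66 ± 0.17, DESeq2 adjusted p = 0.0209).

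Of the genes named after their values were seen, the meiotic recombinase *dmc1* had 52.1, 59.7, 52.4, 51.7 and 25.2 CPM in rFsh fish, against 43.9, 18.4, 27.9, 28.1 and 32.6 CPM in saline fish (log2 fold change 0.67 ± 0.22, DESeq2 adjusted p = 0.0776), where 4 rFsh fish were above all saline fish and rFsh 69 was not. The single-strand binding gene *meiob* had 10.9, 17, 13.9, 11.8 and 4.46 CPM in rFsh fish, against 8.29, 3.38, 4.72, 5.48 and 8.75 CPM in saline fish, with the same fish apart (log2 fold change 0.90 ± 0.29, DESeq2 adjusted p = 0.066). All 15 measured markers of spermatocytes are on the meiotic list, so that they give no separate evidence. Of these, 9 were higher and 0 lower at an unadjusted p under 0.05 (median log2 fold change 0.37). Of the 14 spermatogonial markers 1 was higher and 0 lower (median −0.06). Without rFsh 69, 1 was higher and 4 (28.6%, against 11.4% of all genes) lower. The level of the spermatogonial list in rFsh 62 and rFsh 69 was 0.118 and 0.268, against −0.222 to −0.163 in the other 3 rFsh fish and −0.122 to 0.266 in saline fish.

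**Figure D4:**
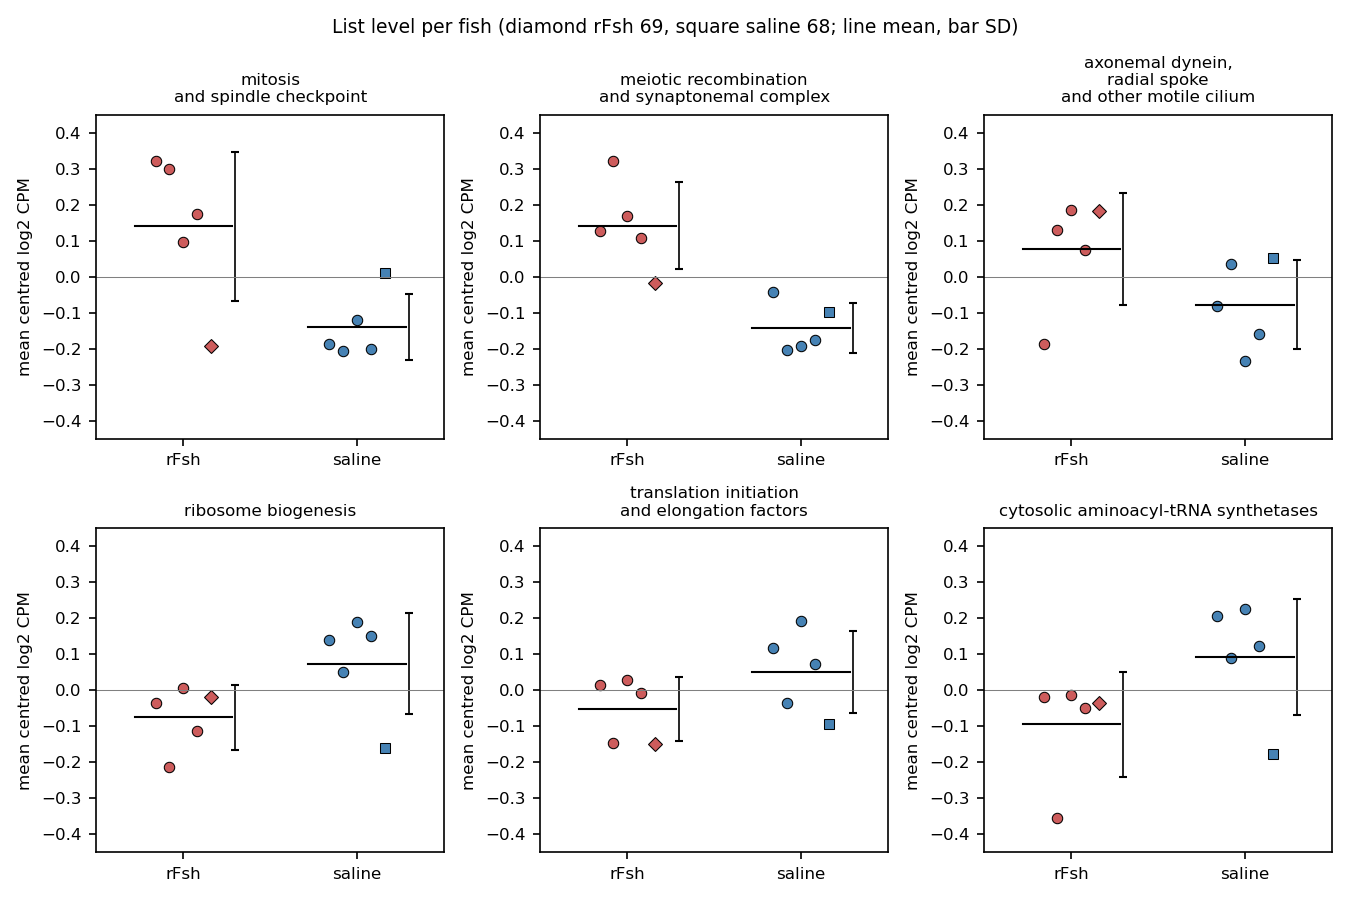
Level of 6 gene lists in each fish (mean over members of centred log2 CPM), rFsh fish in red with rFsh 69 as a diamond, saline fish in blue with saline 68 as a square, with mean (line) and SD (bar, n = 5 per group). The meiotic list separates the groups, with rFsh 69 lowest of its group at −0.016, while in the 3 lists of the lower row the groups overlap and saline 68 is the lowest of its group.

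Genes of DNA replication had a smaller share of members on the higher side. Of 64 members, 14 (21.9%) were higher and 2 (3.12%) lower at an unadjusted p under 0.05, against 9.56% and 7.66% of all genes. The median log2 fold change was 0.14. DESeq2 called *orc5*, *asf1ba*, *dnmt1*, *atad5b*, *tk1* and *rrm2b* as higher (1.61% of all genes) and 0 as lower. The maintenance methyltransferase gene *dnmt1*, which copies DNA methylation at the fork, had 126, 124, 114, 113 and 114 CPM in rFsh fish, against 94.4, 94.8, 96, 95.5 and 113 CPM in saline fish. The groups only just separated, since saline 68 reached 113 CPM (log2 fold change 0.26 ± 0.07, DESeq2 adjusted p = 0.0179). The histone chaperone gene *asf1ba* had 108, 88.8, 100, 101 and 59.6 CPM in rFsh fish, against 65.5, 61.3, 70.8, 61.6 and 65.8 CPM in saline fish, and rFsh 69 lay below all saline fish (log2 fold change 0.49 ± 0.12, DESeq2 adjusted p = 0.0229).

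Subunits of the origin recognition complex differed in sign: the DESeq2 call *orc5* had a log2 fold change of 1.0 ± 0.18, while *orc1*, the largest subunit, had −0.38 ± 0.14 (edgeR adjusted p = 0.201). The *gins2* gene of the replicative helicase had a log2 fold change of −0.30 ± 0.14 (edgeR adjusted p = 0.282). Unlike for mitosis, rFsh 69 had the highest list level of all fish for replication, 0.269, against −0.092 to 0.178 in the other rFsh fish and −0.183 to 0.046 in saline fish. Without rFsh 69, 14 members (21.9%, against 12.1% of all genes) were higher and 8 (12.5%, against 11.4% of all genes) lower at an unadjusted p under 0.05, and the median was 0.08.

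Regulators of germ cell RNA and of piRNAs, the small RNAs that silence transposons in the germ line, gave 5 members higher and 2 lower of 31 at an unadjusted p under 0.05 (median log2 fold change 0.04). The germ granule gene *tdrd7a* had 256, 340, 289, 240 and 244 CPM in rFsh fish, against 184, 200, 170, 197 and 230 CPM in saline fish and was the 1 DESeq2 call. All rFsh fish were above all saline fish (log2 fold change 0.48 ± 0.12, DESeq2 adjusted p = 0.0131). The Piwi protein gene *piwil2*, which carries piRNAs, had 232, 285, 246, 242 and 197 CPM in rFsh fish, against 221, 167, 155, 154 and 187 CPM in saline fish, with overlap (log2 fold change 0.45 ± 0.13, DESeq2 adjusted p = 0.0549).

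Among 101 genes of the axoneme and other parts of the motile cilium, which the sperm tail uses, 19 (18.8%) were higher and 3 (2.97%) lower at an unadjusted p under 0.05. The shares of all genes were 9.56% and 7.66%, and the median log2 fold change of the list was 0.10. DESeq2 called 4 as higher (1.61% of all genes) and 0 as lower, and edgeR called 0. The dynein heavy chain gene *dnah10* had 64.3, 64.8, 62.6, 58.7 and 45.6 CPM in rFsh fish, against 44, 41, 40.9, 45 and 51.2 CPM in saline fish, and rFsh 69 lay within the saline range (log2 fold change 0.41 ± 0.10, DESeq2 adjusted p = 0.0149). The gene *cfap43*, needed for flagellum assembly in mouse and human, had 36.4, 42.3, 45.1, 41 and 25.8 CPM in rFsh fish, against 26.8, 23.3, 20.5, 25.1 and 31 CPM in saline fish (log2 fold change 0.59 ± 0.15, DESeq2 adjusted p = 0.0179). It shares part of its span with another gene, so its level may lack reads or hold reads of that gene. The list level did not separate the groups: rFsh 61, at −0.187, lay below 4 of the saline fish, while the other rFsh fish were between 0.075 and 0.186, against −0.234 to 0.052 in saline fish.

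The central pair gene *spag6* followed the same pattern, with 9.65, 31.1, 26.2, 25.1 and 27.4 CPM in rFsh fish, against 13.2, 12, 8.21, 8.7 and 20.9 CPM in saline fish (log2 fold change 0.92 ± 0.29, DESeq2 adjusted p = 0.0533). Of the rFsh fish only rFsh 61 lay in the range of the lower 4 saline fish. In the 15 markers of spermatids and sperm 4 (26.7%) were higher and 1 (6.67%) lower at an unadjusted p under 0.05 (median 0.04), against 9.56% and 7.66% of all genes. The kinesin gene *kif3b*, the motor that carries cargo up the cilium, had 60.4, 68.2, 63.1, 65.2 and 57.7 CPM in rFsh fish, against 51.8, 48.4, 47.9, 47.9 and 57.2 CPM in saline fish and rose by DESeq2 without overlap (log2 fold change 0.31 ± 0.07, adjusted p = 0.00361). Intraflagellar transport and the ciliary base otherwise stayed near the share over all genes, with 5 higher and 2 lower of 51 (median 0.04). The epsilon tubulin gene *tube1*, of the centriole, rose by DESeq2 (log2 fold change 0.50 ± 0.11, adjusted p = 0.00579).

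**Figure D5:**
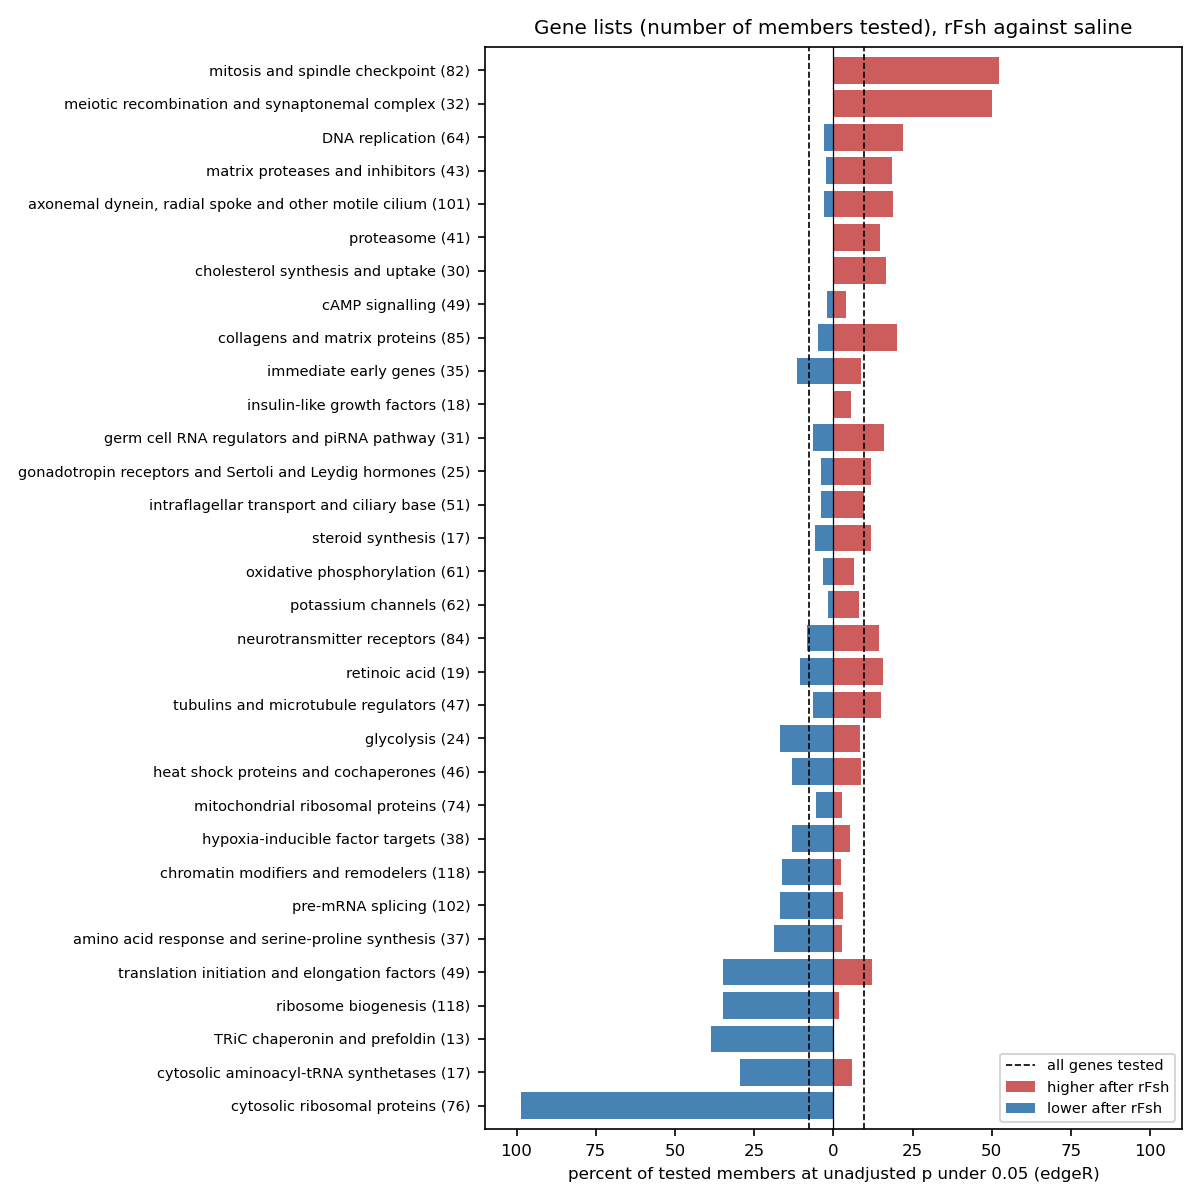
Share of the tested members of 32 gene lists at an unadjusted edgeR p under 0.05, higher after rFsh to the right in red and lower to the left in blue, with the share over all genes tested as dashed lines (9.56% and 7.66%). Mitosis (52.4%) and meiosis (50%) reach furthest to the right, and ribosomal proteins furthest to the left.

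Over all fish, the machinery that makes ribosomes and translates messages lay on the lower side, beyond the ribosomal proteins themselves. Of those, 75 of 76 were lower at an unadjusted p under 0.05 (median log2 fold change −0.38). Of 118 genes of ribosome biogenesis, 41 (34.7%) were lower and 2 (1.69%) higher (median −0.16), and 102 were below 0. Of 49 translation initiation and elongation factors, 17 (34.7%) were lower and 6 (12.2%) higher (median −0.16). Of 17 cytosolic aminoacyl-tRNA synthetases, which charge tRNAs with amino acids, 5 (29.4%) were lower and 1 (5.88%) higher, and 16 were below 0 (median −0.19). The 13 genes of the TRiC chaperonin and prefoldin, which fold new actin and tubulin, had 5 (38.5%) lower and 0 higher (median −0.18). Over all genes 7.66% were lower and 9.56% higher. DESeq2 called 5, 7, 1 and 2 genes of these 4 lists as lower (1.33% of all genes) and 0 as higher (1.61% of all genes) in any, while edgeR called 0. Without saline 68, 11 synthetases (64.7%, against 11.1% of all genes) were lower and 1 higher at an unadjusted p under 0.05. Without rFsh 69, 7 synthetases (41.2%, against 11.4% of all genes) were lower and 1 higher. The translation factors went both ways without rFsh 69, with 19 (38.8%) lower and 9 (18.4%, against 12.1% of all genes) higher. DESeq2 then called 11 of them as lower and 9 as higher, against 4.68% and 5.95% of all genes.

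The nucleolar helicase gene *ddx21*, which couples rRNA synthesis and processing, had 663, 479, 667, 566 and 606 CPM in rFsh fish, against 1040, 747, 1340, 945 and 573 CPM in saline fish. The other saline fish were above all rFsh fish but saline 68 was not (log2 fold change −0.64 ± 0.18, DESeq2 adjusted p = 0.0258, edgeR adjusted p = 0.135). The elongation factor gene *eef1b2*, which reloads the factor that brings tRNAs to the ribosome, had 299, 263, 311, 265 and 314 CPM in rFsh fish, against 466, 372, 530, 486 and 265 CPM in saline fish, with the same fish apart (log2 fold change −0.54 ± 0.15, DESeq2 adjusted p = 0.0272). The chaperonin subunit gene *cct8* had 281, 240, 309, 287 and 286 CPM in rFsh fish, against 387, 341, 432, 361 and 289 CPM in saline fish, and saline 68 again lay within the rFsh range (log2 fold change −0.37 ± 0.10, DESeq2 adjusted p = 0.0272).

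The initiation factor gene *eif4h*, which assists the helicase that unwinds messages, had 82.4, 70, 84.6, 84.5 and 83.3 CPM in rFsh fish, against 105, 91.1, 105, 93.5 and 89.1 CPM in saline fish, without overlap (log2 fold change −0.26 ± 0.07, DESeq2 adjusted p = 0.0415). The tRNA synthetase call of DESeq2 was *tars3* (log2 fold change −0.25 ± 0.07, adjusted p = 0.033), whereas *tars1*, which charges the same amino acid, had 0.18 ± 0.07 (DESeq2 adjusted p = 0.147). Among genes of the amino acid response, 7 of 37 were lower and 1 higher at an unadjusted p under 0.05, with 0 called by either tool. The lower member with the smallest p was *mthfd2*, of mitochondrial folate metabolism (log2 fold change −0.45 ± 0.14, DESeq2 adjusted p = 0.0604).

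The level of these lists differed between fish of 1 group. For ribosome biogenesis it was −0.035, −0.214, 0.006, −0.113 and −0.018 in rFsh fish, against 0.139, 0.052, 0.191, 0.150 and −0.159 in saline fish. For ribosomal proteins it was −0.143, −0.220, −0.223, −0.231 and −0.115 in rFsh fish, against 0.395, 0.018, 0.475, 0.172 and −0.128 in saline fish. In both lists saline 68 lay within the rFsh range and saline 63 and 66 were among the highest. These are also the most deeply read libraries, with 100.7 and 109.8 M reads, against at most 79.9 M in any other of the 10 fish. The fish saline 68, with 79.9 M reads, was the next in depth and had the lowest level of the saline fish in both lists. The part of depth in the result was not tested. Without saline 68, 65 genes of ribosome biogenesis were lower at an unadjusted p under 0.05 (11.1% of all genes) and 1 was higher, and DESeq2 called 43 as lower (5.09% of all genes). Over the 12 fish the corresponding counts were 54 lower (8.46% of all genes), 1 higher and 34 called by DESeq2 as lower (2.89% of all genes). Without rFsh 69 they were 51 lower (11.4% of all genes), 5 higher and 21 called by DESeq2 as lower (4.68% of all genes).

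Processing of messages and chromatin leaned to the lower side, by small amounts. Of 102 splicing genes, 17 (16.7%) were lower and 3 (2.94%) higher at an unadjusted p under 0.05 (median log2 fold change −0.07), and of 118 chromatin modifiers 19 (16.1%) were lower and 3 (2.54%) higher (median −0.06). Over all genes 7.66% were lower and 9.56% higher. Without saline 68, 30 splicing genes (29.4%) and 25 chromatin modifiers (21.2%) were lower, against 11.1% of all genes. Without rFsh 69 these shares were 23.5% and 19.5%, against 11.4% of all genes. Over the 12 fish they were 14.7% and 14.4%, against 8.46% of all genes. The exon junction complex gene *rbm8a* had 90.2, 95.1, 84.4, 90.5 and 119 CPM in rFsh fish, against 140, 142, 126, 120 and 116 CPM in saline fish and fell by DESeq2 (log2 fold change −0.42 ± 0.09, adjusted p = 0.00297, edgeR adjusted p = 0.116). Only rFsh 69 reached the saline range. A further component of that complex, *acin1a*, fell by DESeq2 as well (log2 fold change −0.51 ± 0.12, adjusted p = 0.00842). The lysine methyltransferase gene *setd7* fell by DESeq2 (log2 fold change −0.46 ± 0.12, adjusted p = 0.0145). The heat shock factor gene *hsf1*, the master regulator of chaperones, fell by DESeq2 by a small amount (log2 fold change −0.24 ± 0.06, adjusted p = 0.0126), while over the list of 46 heat shock proteins and cochaperones 6 were lower and 4 higher at an unadjusted p under 0.05.

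Genes of energy metabolism gave few calls over all fish. Of 61 subunits and assembly factors of oxidative phosphorylation, 4 were higher and 2 lower at an unadjusted p under 0.05 (median log2 fold change 0.02), and of 74 mitochondrial ribosomal proteins 2 were higher and 4 lower (median −0.04). Without rFsh 69, 12 genes of oxidative phosphorylation were higher (19.7%, against 12.1% of all genes) and 2 lower, and DESeq2 called 8 as higher (5.95% of all genes) and 1 as lower. Without saline 68, 4 were higher and 4 lower. The single DESeq2 calls in oxidative phosphorylation went both ways. The complex I assembly factor *ndufaf2* had 24, 25.4, 24.2, 22.8 and 20.1 CPM in rFsh fish, against 18.5, 16.6, 17.6, 18.5 and 20 CPM in saline fish (log2 fold change 0.35 ± 0.09, DESeq2 adjusted p = 0.019). The complex II subunit *sdhb* had 42.5, 39.7, 43.1, 42.8 and 44.3 CPM in rFsh fish, against 50.8, 48.6, 47.7, 47.1 and 49.3 CPM in saline fish (log2 fold change −0.20 ± 0.06, DESeq2 adjusted p = 0.0229). The groups of neither gene overlapped. Of 41 proteasome genes 6 (14.6%, against 9.56% of all genes) were higher and 0 lower, and 33 were above 0 (median 0.10). Without rFsh 69 the count was 14 higher (34.1%, against 12.1% of all genes, median 0.17), with 6 called by DESeq2 (5.95% of all genes). Without saline 68 it was 8 higher (19.5%, against 13.6% of all genes), with 1 called by DESeq2 (5.83% of all genes).

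In glycolysis 4 of 24 genes were lower and 2 higher. The lactate dehydrogenase gene *ldhba* had 32, 31.8, 28.7, 38 and 32.8 CPM in rFsh fish, against 51.8, 51.5, 51.5, 57.4 and 32.8 CPM in saline fish and fell by DESeq2 (log2 fold change −0.59 ± 0.17, adjusted p = 0.0459), with saline 68 level with the rFsh fish. The glycolytic enzyme gene *gapdhs*, whose mammalian form is specific to sperm, had 451, 442, 478, 475 and 418 CPM in rFsh fish, against 558, 484, 601, 524 and 501 CPM in saline fish, without overlap (log2 fold change −0.24 ± 0.08, DESeq2 adjusted p = 0.0736). Among 38 targets of hypoxia-inducible factors 5 were lower and 2 higher, and DESeq2 called the glucose transporter gene *slc2a3a* (log2 fold change −1.09 ± 0.29, adjusted p = 0.0161) and the glycogen branching enzyme gene *gbe1b* (log2 fold change −0.51 ± 0.13, adjusted p = 0.018) as lower.

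The genes nearest to the hormone itself were measured for 25 of the 29 members in the file, since *fshr* and 3 others did not reach the minimum. Of these 25, 3 were higher and 1 lower at an unadjusted p under 0.05, and DESeq2 called 1. That was *amh*, the Sertoli cell hormone that restrains the differentiation of spermatogonia, with 151, 142, 104, 125 and 122 CPM in rFsh fish, against 184, 139, 216, 197 and 162 CPM in saline fish. It fell by DESeq2 (log2 fold change −0.48 ± 0.13, adjusted p = 0.0243, edgeR adjusted p = 0.123). The values of rFsh 61 and 62 lay above that of saline 64, and the other rFsh fish below all saline fish. The inhibin alpha gene *inha*, which makes the hormone that restrains Fsh secretion, had 279, 361, 274, 396 and 232 CPM in rFsh fish, against 247, 188, 246, 167 and 311 CPM in saline fish, with overlap through rFsh 69 and saline 68 (log2 fold change 0.41 ± 0.17, DESeq2 adjusted p = 0.191).

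Follistatin (*fsta*), which binds activin, had 21.7, 15, 14.5, 25.6 and 10.7 CPM in rFsh fish, against 11.3, 13, 11.1, 9.98 and 13.3 CPM in saline fish (log2 fold change 0.58 ± 0.23, DESeq2 adjusted p = 0.147). The sex steroid binding globulin gene *shbg* had 13.8, 11.8, 12.9, 17.6 and 11.4 CPM in rFsh fish, against 8.83, 9.23, 8.61, 11.4 and 14 CPM in saline fish (log2 fold change 0.38 ± 0.15, DESeq2 adjusted p = 0.168). These 2 and *inha* were the 3 higher ones, and in each the groups overlapped. The gonadal soma factor *gsdf* had a log2 fold change of −0.20 ± 0.19, the androgen receptor gene *ar* of 0.21 ± 0.21 and the 3 estrogen receptor genes of −0.13 to −0.06, at edgeR adjusted p-values of 0.574 to 0.813. The other 13 members were the relaxins *rln1* and *rln3a*, the relaxin family receptors *rxfp2a* and *rxfp3*, the receptors of oxytocin (*oxtra*) and progestins (*pgr*), the activin subunit *inhbaa*, the follistatin-like gene *fstl3*, the signalling ligands *fgf2*, *gdnfa* and *wnt5b*, and the chemokines *cxcl12a* and *cxcl12b*. Their log2 fold changes were between −0.56 and 0.81, at edgeR adjusted p-values of 0.372 to 0.881, and the groups of all 13 overlapped. Without rFsh 69, 7 of the 25 hormone genes were higher and 4 lower at an unadjusted p under 0.05, and without saline 68, 5 were higher and 2 lower.

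Leydig cell genes varied widely within both groups. The hormone *insl3*, made by Leydig cells, had 387, 448, 247, 923 and 159 CPM in rFsh fish, against 231, 127, 114, 114 and 543 CPM in saline fish. The ranges overlapped widely, with rFsh 69 low and saline 68 high in its group (log2 fold change 0.94 ± 0.47, edgeR adjusted p = 0.32). The Lh receptor gene *lhcgr* had 93, 84.5, 77, 89.4 and 37.1 CPM in rFsh fish, against 73.3, 57.9, 91.3, 36.1 and 112 CPM in saline fish (log2 fold change 0.04 ± 0.30). A second gene matching LHCGR (LOC122781549, linkage group 15, 8808514 to 8819533), named after its values were seen, had 263, 200, 168, 304 and 71.2 CPM in rFsh fish, against 132, 102, 76.2, 75.3 and 298 CPM in saline fish (log2 fold change 0.56 ± 0.38, edgeR adjusted p = 0.462). Without saline 68 its log2 fold change was 1.06 and DESeq2 called it (adjusted p = 0.0116, edgeR adjusted p = 0.0692). In all 3 genes saline 68 was the highest saline fish and rFsh 69 the lowest rFsh fish. The list level of the 5 Leydig cell markers was 0.476, 0.277, −0.096, 0.761 and −0.638 in rFsh fish, against 0.013, −0.336, −0.346, −0.718 and 0.607 in saline fish. Without saline 68, *insl3* had a log2 fold change of 1.56 and was called by DESeq2 (adjusted p = 0.0176) and not by edgeR (adjusted p = 0.0526).

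Steroid and cholesterol synthesis gave few calls. Of 17 genes of steroid synthesis 2 were higher and 1 lower at an unadjusted p under 0.05, with 0 called by either tool. Of 30 genes of cholesterol synthesis and uptake 5 (16.7%) were higher and 0 lower (median log2 fold change 0.10). The sterol oxidase gene *msmo1* had 13.4, 25.5, 16.4, 28.5 and 15.3 CPM in rFsh fish, against 9.51, 12.8, 7.52, 10.4 and 16.8 CPM in saline fish and rose by DESeq2 (log2 fold change 0.80 ± 0.23, adjusted p = 0.0325). The brake of the pathway, *insig1*, had a log2 fold change of 0.41 ± 0.13 (DESeq2 adjusted p = 0.0807).

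In cyclic AMP signalling, the route by which the Fsh receptor acts, 2 of 49 genes were higher and 1 lower, and DESeq2 called both of the higher ones. Without rFsh 69, 8 (16.3%) were higher and 3 lower, and without saline 68, 9 (18.4%) were higher and 1 lower, against 12.1% and 13.6% of all genes higher. The regulatory subunit of protein kinase A, *prkar1b*, had 109, 116, 115, 107 and 86.8 CPM in rFsh fish, against 65.4, 81.1, 69.3, 79.7 and 87 CPM in saline fish. The groups met only where rFsh 69 and saline 68 nearly coincided (log2 fold change 0.48 ± 0.09, DESeq2 adjusted p = 0.00168, edgeR adjusted p = 0.0948). The phosphodiesterase gene *pde7a*, which breaks cyclic AMP down, had 83, 81.1, 67.7, 95.8 and 69.4 CPM in rFsh fish, against 56.6, 64.1, 54.4, 69.7 and 65.3 CPM in saline fish (log2 fold change 0.36 ± 0.10, DESeq2 adjusted p = 0.0358). Of 18 genes of insulin-like growth factor signalling 1 was higher and 0 lower. Without rFsh 69, 2 (11.1%) were higher and 4 (22.2%) lower, against 12.1% and 11.4% of all genes. Without saline 68, 5 (27.8%) were higher and 0 lower, against 13.6% and 11.1% of all genes. Of 35 immediate early genes 3 were higher and 4 lower over all fish, with 0 called by either tool.

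Retinoic acid, which starts meiosis in mammals, was represented by 19 genes, of which 3 were higher and 2 lower. The retinol uptake receptor gene *stra6* had 1.76, 2.8, 1.44, 1.49 and 2.88 CPM in rFsh fish, against 5.25, 2.38, 3.78, 2.8 and 3.91 CPM in saline fish, with overlap (log2 fold change −0.82 ± 0.25, DESeq2 adjusted p = 0.0625).

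Genes of the extracellular matrix leaned to the higher side over all fish. Of 85 collagens and matrix proteins 17 (20.0%) were higher and 4 (4.71%) lower at an unadjusted p under 0.05 (median log2 fold change 0.09). The shares of all genes were 9.56% and 7.66%. DESeq2 called *col27a1a*, *col9a3* and *col11a2* as higher (1.61% of all genes). Without rFsh 69 the list was less one-sided, with 22 (25.9%) higher and 12 (14.1%, against 11.4% of all genes) lower, and DESeq2 called 6 as higher and 6 as lower. Without saline 68, 27 (31.8%) were higher and 3 (3.53%) lower, against 13.6% and 11.1% of all genes. The gene *col27a1a*, of a fibrillar collagen, had 98.7, 95.3, 93.6, 89.7 and 73.5 CPM in rFsh fish, against 69.9, 62.5, 68.8, 81.4 and 69.6 CPM in saline fish, with rFsh 69 within the saline range (log2 fold change 0.36 ± 0.09, DESeq2 adjusted p = 0.0158). Of 43 matrix proteases and inhibitors 8 (18.6%) were higher and 1 (2.33%) lower, against 9.56% and 7.66% of all genes. The protease gene *adamts12* had 62.3, 27.3, 19.3, 19.6 and 29.1 CPM in rFsh fish, against 12, 10.8, 15.8, 16.9 and 18.9 CPM in saline fish, without overlap and with rFsh 61 far above the rest (log2 fold change 1.09 ± 0.33, DESeq2 adjusted p = 0.0394). The metalloprotease gene *mmp30* had 4.4, 0.587, 0.249, 2.56 and 4.71 CPM in rFsh fish, against 0.576, 0.435, 0.514, 0.299 and 0.2 CPM in saline fish, where 3 rFsh fish were high and rFsh 62 and 64 were not (log2 fold change 2.65 ± 0.68, DESeq2 adjusted p = 0.0105).

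Genes of striated muscle were higher in part. Of 32 measured members 10 (31.2%) were higher and 2 (6.25%) lower at an unadjusted p under 0.05, against 9.56% and 7.66% of all genes. The median log2 fold change was 0.16. The myosin binding gene *mybpc2a* had 3.2, 2.03, 11.5, 4.63 and 12.4 CPM in rFsh fish, against 1.62, 2.84, 1.57, 1.86 and 1.48 CPM in saline fish (log2 fold change 1.89 ± 0.46, DESeq2 adjusted p = 0.00903), and the values of rFsh 64 and 69 were the highest. The giant filament gene *neb* had 93.1, 119, 83, 100 and 84.2 CPM in rFsh fish, against 75.7, 53.6, 49.5, 83.5 and 63.2 CPM in saline fish and rose by DESeq2 (log2 fold change 0.56 ± 0.15, adjusted p = 0.0278). A gene matching the fast troponin TNNI2 (LOC122776097) had 7.87, 0.776, 15.5, 14.6 and 1.41 CPM in rFsh fish, against 0.178, 0.217, 0.238, 0.26 and 0.15 CPM in saline fish, without overlap but spread widely among rFsh fish (log2 fold change 5.24 ± 1.14, DESeq2 adjusted p = 5.57e-05, edgeR adjusted p = 0.117). The TNNI2 match reached 50 reads in rFsh fish only, so it entered the test through the group in which it is high. The summed CPM of the marker list was 1080 to 1330 in rFsh fish and 1080 to 1360 in saline fish, so that its summed level did not separate the groups.

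Receptors of neurotransmitters and ion channels held single genes rather than a group. Of 84 neurotransmitter receptors 12 (14.3%) were higher and 7 (8.33%) lower, among them *grm5a* above. A second metabotropic glutamate receptor gene, *grm3*, had 6.94, 13.6, 6.4, 5.45 and 2.81 CPM in rFsh fish, against 1.07, 1.75, 1.56, 2.93 and 4.06 CPM in saline fish and rose by DESeq2 (log2 fold change 1.64 ± 0.43, adjusted p = 0.0131). Only rFsh 69 fell within the saline range. Of 62 potassium channel genes 5 were higher and 1 lower, and *kcnh4b*, a voltage-gated channel, rose by DESeq2 (log2 fold change 0.59 ± 0.15, adjusted p = 0.0238).

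Blood and vessel markers held few members at an unadjusted p under 0.05. Of the red blood cell markers 10 were above 0 and 1 below (median log2 fold change 0.14). For endothelial markers these counts were 12 and 11 (median 0.01), and for liver and plasma genes 13 and 9 (median 0.10). Of 11 red blood cell markers 1 was higher and 0 lower at an unadjusted p under 0.05, of 23 endothelial markers 0 were higher and 2 lower, and of 22 measured liver and plasma genes 3 were higher and 2 lower. The 2 endothelial genes were the vascular growth factor receptor *kdr*, with 53, 34, 64.9, 83.7 and 64.1 CPM in rFsh fish, against 169, 74, 83.2, 178 and 43.6 CPM in saline fish (log2 fold change −0.87 ± 0.35, DESeq2 adjusted p = 0.117), and the apelin receptor *aplnra* (log2 fold change −0.96 ± 0.32, DESeq2 adjusted p = 0.0574). For the 12 Sertoli cell markers the median log2 fold change was −0.03, with levels of −0.132 to 0.078 in rFsh fish and −0.164 to 0.168 in saline fish. Neither tool called a gene on the lists of Leydig cells, smooth muscle, red blood cells, T cells, macrophages and granulocytes, or endothelium.

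The largest decreases came from genes that were high in some saline fish only. A gene matching DRD5, a dopamine receptor (LOC122759583), had 0.133, 0.208, 0.149, 0.218 and 0.172 CPM in rFsh fish, against 26.4, 1.77, 32, 1.96 and 0.451 CPM in saline fish. All rFsh fish were below all saline fish, and saline 63 and 66, the most deeply read, stood far above the other saline fish (log2 fold change −6.21 ± 1.37, DESeq2 adjusted p = 1.22e-07, edgeR adjusted p = 0.117). The long non-coding RNA LOC122766001 had 0.0398, 0.0189, 0.0166, 0.0182 and 0.0 CPM in rFsh fish, against 5.47, 0.623, 5.15, 0.35 and 0.0751 CPM in saline fish, with the same fish apart (log2 fold change −6.91 ± 1.61, DESeq2 adjusted p = 1.22e-07). This RNA and the DRD5 match passed the minimum of reads in saline fish only, so they entered the test through the group in which they are high. Their calls are thus no support for a direction. The relaxin receptor gene *rxfp1* varied in like manner, with 6.89, 3.58, 0.995, 1.45 and 118 CPM in rFsh fish, against 151, 13.9, 153, 10 and 83.2 CPM in saline fish, and here the groups overlapped through rFsh 69 (log2 fold change −1.64 ± 1.04, edgeR adjusted p = 0.428). Without rFsh 69 the log2 fold change of *rxfp1* was −4.63, and both tools called it (edgeR adjusted p = 0.0162, DESeq2 adjusted p = 4.32e-06).

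More even decreases were found for a gene matching MMP17, a membrane-bound metalloprotease (LOC122758644), with 3.06, 3.2, 1.44, 2.72 and 2.35 CPM in rFsh fish, against 4.47, 6.35, 6.49, 9.88 and 5.22 CPM in saline fish. The groups did not overlap (log2 fold change −1.34 ± 0.24, DESeq2 adjusted p = 5.57e-05, edgeR adjusted p = 0.0669). The coatomer gene *copz2*, of vesicle transport, had 21, 41.1, 31.4, 26.8 and 21.7 CPM in rFsh fish, against 76.2, 48.7, 61.7, 43.9 and 41.3 CPM in saline fish and fell by DESeq2 (log2 fold change −0.94 ± 0.23, adjusted p = 0.00862). Among the larger increases outside the immunoglobulins, a gene matching CHST12, a chondroitin sulfotransferase (LOC122766360), had 0.982, 0.871, 17.9, 3.83 and 1.06 CPM in rFsh fish, against 0.408, 0.594, 0.437, 0.636 and 0.726 CPM in saline fish. The groups did not overlap, and rFsh 64 was far above the rest (log2 fold change 3.14 ± 0.83, DESeq2 adjusted p = 0.00137). The same fish had the highest levels of *ighd*, *cd79a*, *cd79b* and the summed immunoglobulin segments.

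Single fish also decided calls of named genes. Of 105 genes named with values or on the hormone list, DESeq2 called 64 over all fish, against 2.94% of all genes. Many of the 105 were chosen by a call or a small p, so this count follows from the choice. Without rFsh 69 it called a further 14 (*aplnra*, *cd79a*, *dmc1*, *fsta*, *gins2*, *insig1*, *meiob*, *mthfd2*, *orc1*, *piwil2*, *rxfp1*, *stra6*, *swap70b* and *tars1*) and no longer called 1, *cenps*. Without saline 68 it called a further 15 (*aplnra*, *dmc1*, *gapdhs*, *inha*, *insig1*, *insl3*, *kdr*, *meiob*, *mthfd2*, *orc1*, *piwil2*, *shbg*, *spag6*, *xbp1* and the second LHCGR match) and lost 0. Of the 105 genes, 0 changed sign without either fish, which the choice of genes favours as well. Over all genes DESeq2 called 2250 without rFsh 69 and 2310 without saline 68, against 622 with all fish. Calls of the 105 genes with any other single fish left out are not given. Of all genes, DESeq2 then called fewer, 161 to 453, except without rFsh 61 (705).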

How the data were processed

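Testis libraries of 15 fish (5 each given rFsh, rLh or saline) were made from total RNA with a modified SMARTseq2 protocol and read as pairs on a NovaSeq instrument. The authors deposited whole read counts per gene, with no scaling. By their methods, adapters were removed with cutadapt, alignment to the sole genome used Subread, and reads were summed over annotated genes by the R release of that tool at its defaults. The submitters' processing notes list CASAVA 1.8, cutadapt 3.4, FastQC 0.11.9, Subread 2.0.1, R 4.0.4 and build IFAPA_SoseM_1. Libraries carried no molecular identifiers, so amplified copies cannot be told from separate molecules, and counting was not stated to use strand.

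Counts were fitted in R 4.3.3 with edgeR 4.0.16 (TMM factors, quasi-likelihood F test, two-sided, 1 mean per group, no covariate, all 15 fish, contrast rFsh minus saline). Genes needed 50 counts in at least 1 of the 10 rFsh and saline fish, and p-values were adjusted over all 21162 genes at a threshold of 0.05. DESeq2 1.42.0 (Wald test, defaults) was run on the same genes. It gave no adjusted p for 46 genes. CPM used TMM factors, and log2 CPM a prior count of 2. On simulated counts for 21162 genes, 200 of them changed by 1 log2 unit, edgeR recovered 166 with 10 false calls and DESeq2 175 with 39. The changed genes were drawn only from those with higher mean counts, and no simulated fish stood apart from its group. These rates therefore do not carry over to the smaller changes found here. The common coefficient of variation between fish was 0.234. Summaries used pandas 2.3.3 and numpy 2.4.6 under Python 3.11.15.

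The members, gene lists and tests were chosen with earlier results of these data known. Lists hold genes by symbol only: 8415 tested genes (39.8%) have no symbol, just an identifier, and are on no list, so lists miss such copies. For 1040 of them a human match from the study's supplementary annotation was at hand and gives the name used. Named are all edgeR calls, up to 10 genes in each direction with the largest fold change among DESeq2 calls without overlap and at a mean of 1 CPM, up to 3 members of each list in each direction by p, and the hormone list; the text gives all of the first and last kinds and a part of the others, exceptions are stated, and a few genes are not reported here. The list of immunoglobulin segments was added after the values were seen. The exact permutation test foreseen for single genes was not used, since the fit over all genes covers each named gene. Alternatives were DESeq2, the 12 fish of the study's own analysis (told from its table of mean counts), fits of the 10 fish, other scaling factors, filters and dispersion settings, the fish number as a block, and each fish left out in turn. Coordinates are those of IFAPA_SoseM_1, and no sequence is shown.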

Additional observations from a re-analysis of the deposited data

Results flagged for a closer look

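In 16 of 196 groups of 5 fish, checked for each gene or list on log2 CPM, 1 fish stood far from the other 4. Chance alone flags about 1 in 20 such groups, and 8 of the 16 were the same fish, rFsh 69. On that scale it was the lowest rFsh fish for the cochaperone *bag1* (5.28), the checkpoint kinase *bub1bb* (6.14), the recombinase *dmc1* (4.66), the axonemal dynein *dnah10* (5.51), the Lh receptor *lhcgr* (5.21), the protein kinase A subunit *prkar1b* (6.44), the proteasome subunit *psmd8* (6.87) and the centriolar tubulin *tube1* (4.14). The fish saline 68 stood apart from the other saline fish for 4 genes. It was highest for the methyltransferase *dnmt1* (6.82) and the phosphatase *dusp5* (5.22), and lowest for the lactate dehydrogenase *ldhba* (5.04) and the ciliary kinase *stk36* (7.22). In each of these 12 genes the fish lay off its own group in the direction of the other group's median. The remaining 4 were rFsh 62, lowest for the initiation factor *eif4h* (6.13) and highest for the methyltransferase *setd7* (4.9), and rFsh 61, lowest for the glucose transporter *slc2a3a* (0.66) and the central pair gene *spag6* (3.27).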

How the results depend on the processing

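The 10 genes that edgeR called kept their direction under every alternative that could fit them, while the number called did not hold. DESeq2 called 622 genes (340 higher, 282 lower), and over the 12 fish 1242 (631 higher, 611 lower), against 9 for edgeR over the 12. With edgeR, only the 10 rFsh and saline fish gave 3 calls, upper quartile factors 6, DESeq2 size factors 5, the standard expression filter 4, 50 counts in each of the 10 fish 1 and the older quasi-likelihood form 1, which were all among the 10. With TMMwsp factors, no filter or robust estimation 7 were called. Leaving out each fish in turn gave 1 to 1005 calls: 1005 without rFsh 69 (717 higher, 288 lower), 643 without saline 68 (322 higher, 321 lower), 21 without rFsh 61 and at most 13 without any other fish, with 1 call each without saline 66 and saline 67, and 2 each without rFsh 68 and saline 63. DESeq2 with a fish left out, added after seeing the data, gave 705, 286, 316, 175 and 2250 calls without rFsh 61, 62, 64, 68 and 69, and 216, 453, 161, 327 and 2310 without saline 63, 64, 66, 67 and 68. The 364 genes whose groups do not overlap became 457 to 1633 when a fish was left out (733 without rFsh 61, 579 without rFsh 64, 563 without saline 64, 1633 without rFsh 69, 1489 without saline 68), as fewer fish overlap less often by construction, and 354 or 355 under other scaling factors. Where the cause of a change is not given by the construction, it was not tested.

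The rFsh and saline fish share the numbers 64 and 68, and the rLh and saline fish share all of theirs, but no label says that a number marks anything common. With the fish number as a replicate block, edgeR called 28 genes (26 higher, 2 lower), 3 of them among the 10. The numbers 61, 62 and 69 occur only among rFsh fish, so in this fit the contrast rests on rFsh 64 and 68 alone. Of 1150 list medians recomputed, 18 moved by at least the SD of the list level among the saline fish. Of the named genes, 0 reversed where the main fit or the alternative called them. A change of sign in a gene called by neither was not counted. Under some alternative, 328 values became called and 129 were no longer called. List levels as summed CPM had the same sign of difference as mean log2 CPM in 39 of 46 lists. The other 7 lists were T cells, immediate early genes, liver and plasma proteins, macrophages and granulocytes, neurotransmitter receptors, steroid synthesis and tubulins. Depth limits the precision of the immunoglobulin segments called, which rest on few reads (at most 139 in any rFsh fish for LOC122785365).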
